A study of Mus musculus with 8 samples.

Results

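The genes described here encode the SNARE proteins of platelet granule secretion and of autophagosome fusion, with the Sec1/Munc18-like protein that binds the secretory syntaxin. They were chosen by symbol, as syntaxins Stx11, Stx12, Stx7 and Stx17, the SNAP proteins Snap23 and Snap29, the vesicle-associated membrane proteins Vamp3, Vamp7 and Vamp8, and the syntaxin-binding protein Stxbp2. All 10 were in the deposited table, out of 43548 genes. RNA was taken from washed, untreated platelets. There were 4 TNFdARE mice and 4 controls from the same litters, all 8 to 12 weeks old, with 2 females and 2 males in each group. TNFdARE mice, labelled TNFdAre +, carry a germline deletion of the AU-rich element of the Tnf gene and have constitutively elevated TNF-α, with arthritis and bowel inflammation. The littermates are labelled TNFdAre -, and the TNFdARE line was backcrossed with C57BL/6J mice. Whether the TNFdARE mice carried 1 or 2 altered alleles is not given in the sources used here. A part of each label speaks of 3 mice per group and another part of older male mice used for bone, but 8 libraries were deposited and analysed. All 8 carry the same batch date.

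SNARE proteins drive the fusion of a vesicle with its target membrane. A vesicle-borne R-SNARE (a VAMP) zips into a bundle of helices with a syntaxin and with the helices of a SNAP protein on the other membrane. In platelets, syntaxin 11, SNAP23 and VAMP8 are known as the main fusion proteins of granule release, and STXBP2 (Munc18-2) is the chaperone of syntaxin 11. The loss of STX11 or STXBP2 in people causes familial hemophagocytic lymphohistiocytosis, with a platelet secretion defect. Syntaxin 17, SNAP29 and VAMP8 form the complex that joins a finished autophagosome to a lysosome. Syntaxin 7 and syntaxin 12 serve endosomes, VAMP3 serves recycling endosomes and VAMP7 serves late endosomes and lysosomes.

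The deposited values were read as FPKM, a level corrected for how long the transcript is and how many fragments were mapped. The libraries differed widely in breadth. Control libraries listed 1479 to 2742 genes above 0, and TNFdARE libraries 818 to 4917. How many reads each library held is unknown. Hprt, a gene that most cells use, was listed at 0 in all 8 libraries. A listed 0 can therefore be a failed estimate, and it is given below only as a listed value. The 12 platelet markers examined summed to 969 to 1278 FPKM in control mice and to 980 to 1073 FPKM in TNFdARE mice. At least 11 of them were above 0 in each library, and Treml1 was at 0 in TNFdARE mouse 1. Pf4 and Ppbp had the highest means (325 and 266 FPKM), and single markers ran either way. Tubb1 was at 88.2 to 169 FPKM in control mice, against 24.4 and 39.0 FPKM in TNFdARE mice 1 and 4 and 141 and 111 FPKM in TNFdARE mice 2 and 3. Gp9 was at 28.3 to 118 FPKM in control mice and 83.2 to 139 FPKM in TNFdARE mice. Of 17 leukocyte markers, 12 were at 0 in all 8 libraries, among them Ptprc, Cd3e, Cd79a and Nkg7. The summed leukocyte level was 30.8 to 50.3 FPKM in control mice and 12.0 to 36.1 FPKM in TNFdARE mice, with Lyz2 (11.9 to 50.3 FPKM) the only marker above 0 in all 8. In TNFdARE mouse 4 the neutrophil gene S100a9 gave 10.3 of 28.3 FPKM. The 9 erythroid markers in the table summed to 748 to 2196 FPKM in control mice and to 1106 to 14640 FPKM in TNFdARE mice.

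The members fell into 3 sets by their listed values. Stx11 and Snap23 were the abundant ones. Stx7, Stxbp2 and Vamp3 were low and listed above 0 in the same 5 libraries. Snap29, Vamp8, Stx12, Stx17 and Vamp7 were listed at or near 0 throughout, which does not show that their RNA was scarce. Of the 80 values that 10 genes and 8 mice give, 33 were above 0. Only 3 members, Stx11, Snap23 and Stx7, had a mean of at least 1 FPKM over the 8 mice and entered the limma comparison of genotypes. The 7 others were below that filter and are described by their values, with an exact permutation test for Vamp3 and Stxbp2, which were above 0 in 5 mice.

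**Figure D1:**
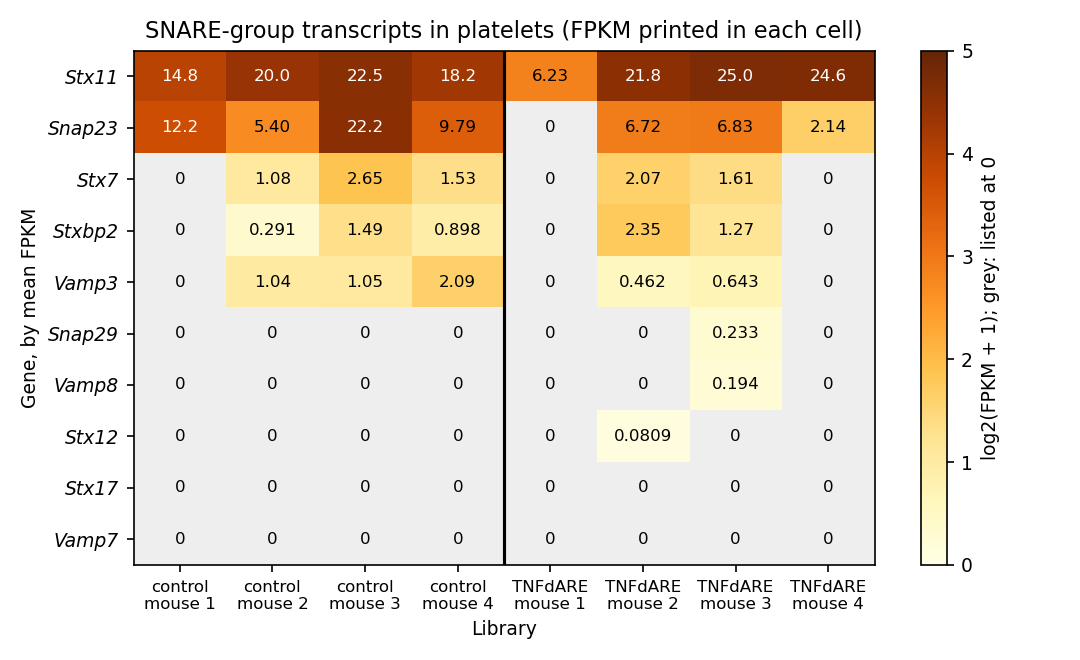
FPKM of the 10 genes (rows, by mean) in each of the 8 libraries (columns, control mice left of the line, TNFdARE mice right of it), with colour for log2(FPKM + 1) and grey for a listed 0. Stx11 is the only gene above 0 in every library, and Stx17 and Vamp7 are at 0 in all 8.

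Among the syntaxins, Stx11 (ENSMUSG00000039232, GRCm38 chr10:12938209-12964298, reverse strand) was the only member above 0 in all 8 mice. Its level was 14.8, 20.0, 22.5 and 18.2 FPKM in control mice 1 to 4, against 6.23, 21.8, 25.0 and 24.6 FPKM in the TNFdARE mice of the same order. The groups overlapped, and TNFdARE mouse 1 was the only TNFdARE mouse below every control mouse. On the log2(FPKM + 1) scale the mean was 4.30 ± 0.24 (SD, n = 4) in control and 4.19 ± 0.89 (SD, n = 4) in TNFdARE platelets. The log2 fold change was -0.11 (standard error 0.56, 95% confidence interval -1.32 to 1.10, Benjamini-Hochberg adjusted p = 0.98, limma). The two-sided exact permutation test of 4 mice against 4 gave p = 0.97. The interval includes changes of more than 2-fold in either direction, so this comparison does not show that the level was the same. Without TNFdARE mouse 1 the sign changed and the log2 fold change was 0.33 (unadjusted p = 0.27 and adjusted p = 0.91 by limma, exact permutation p = 0.086). Except where another pseudocount is among the alternatives, 1 was added to the FPKM before the log2, which understates how much a gene of low level differs.

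Stx11 was also high in rank. Among the genes above 0 it stood at position 307 of 1479, 206 of 2196, 201 of 2302 and 203 of 2742 from the top across control mice 1 to 4. For TNFdARE mice 2, 3 and 4 its position was 174 of 3187, 158 of 4917 and 193 of 1225, and in TNFdARE mouse 1 at 440 of 818. A rank does not depend on the scaling of a library, and TNFdARE mouse 1 was lowest by rank as well as by FPKM. TNFdARE mouse 1 was also the library with the fewest genes above 0, and a single gene, AY036118, held 67.7% of its summed FPKM against 33.7% to 51.8% in the other libraries. The part of library breadth in the low value was not tested. As a share of the summed platelet markers, Stx11 was 1.53%, 1.95%, 1.76% and 1.83% in control mice 1 to 4, against 0.581%, 2.03%, 2.44% and 2.51% in TNFdARE mice 1 to 4. On this scale, chosen after the values were seen, TNFdARE mice 2, 3 and 4 lay above every control mouse and TNFdARE mouse 1 below every one.

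The genes whose pattern over the 8 mice was most like that of Stx11 were found among the 1533 other genes tested, by the root mean square difference between mean-centred log2(FPKM + 1) profiles. They were Bysl (0.22), Stk24 (0.23) and Zyx (0.24), against a median difference of 1.10 for all genes compared. Zyx encodes zyxin, a protein of focal adhesions. Control mice had 136 to 212 FPKM of Zyx, against 79.9 to 196 FPKM in TNFdARE mice, with its lowest value in TNFdARE mouse 1. These genes were picked for their likeness to Stx11, so the small differences and the shared low value follow from that choice.

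Stx7 (ENSMUSG00000019998, chr10:24149302-24190222, forward strand), the syntaxin of late endosomes, was listed at 0 in control mouse 1 and at 1.08, 2.65 and 1.53 FPKM in control mice 2, 3 and 4. TNFdARE mice 1 and 4 listed 0, and TNFdARE mice 2 and 3 had 2.07 and 1.61 FPKM. The values above 0 in TNFdARE mice lay within the range of those in control mice. The log2 fold change was -0.32 (standard error 0.73, 95% confidence interval -1.90 to 1.26, Benjamini-Hochberg adjusted p = 0.93, limma), and the exact permutation p was 0.74. The log2 fold change was 0.43 without TNFdARE mice 1 and 4, -0.67 without control mouse 1, -0.05 without control mouse 3 and -0.96 with a pseudocount of 0.1.

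Stx12 (ENSMUSG00000028879, chr4:132853501-132884509, reverse strand), the recycling endosome syntaxin, was above 0 in TNFdARE mouse 2 alone, at 0.0809 FPKM. That value stood at position 3007 of 3187 from the top in its library.

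Stx17 (ENSMUSG00000061455, chr4:48124915-48186507, forward strand), the autophagosomal syntaxin on which the study centred, had a listed value of 0 for every mouse of either group. No fold change or test can be given for its transcript. Its 4 annotated transcripts are 618 to 5770 bases long. Since Hprt was also at 0 in every library, the listed zeros do not show that platelets lacked Stx17 RNA, and a difference between genotypes was not detectable in these data.

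Snap23 (ENSMUSG00000027287, chr2:120567671-120601255, forward strand), the SNAP protein that supplies helices to the secretory SNARE bundle, was the second most abundant member. Its level was 12.2, 5.40, 22.2 and 9.79 FPKM in control mice 1 to 4. In TNFdARE mouse 1 it was listed at 0, and in TNFdARE mice 2, 3 and 4 it was 6.72, 6.83 and 2.14 FPKM. The TNFdARE values lay in the lower part of the range, but the groups overlapped, because control mouse 2 was below TNFdARE mice 2 and 3. The log2 fold change was -1.70 (standard error 0.77, 95% confidence interval -3.36 to -0.04), with an unadjusted p = 0.045 and a Benjamini-Hochberg adjusted p = 0.86 over the 1534 genes tested, both by limma. The two-sided exact permutation p was 0.086, where the smallest value that 4 against 4 mice allow is 0.029. Snap23 thus passed an unadjusted threshold of 0.05 in the model and passed neither the adjusted threshold nor the permutation test.

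Snap23 was the only member past the unadjusted threshold, 1 of 3 tested. Of all 1534 genes tested, 4.5% passed that threshold (69 genes), 2.74% with a lower level in TNFdARE platelets and 1.76% with a higher level, and 0 genes had an adjusted p under 0.05 by limma. Of the genes past the threshold 39.1% were higher as deposited, 51.7% after quantile normalization, 66.7% with sample weights and 79.7% without TNFdARE mice 1 and 4. That share moved the other way without control mouse 1 (16.3%) or TNFdARE mouse 2 (30.7%). Over all tested genes the median log2 fold change was -0.30. It was -0.12 after quantile normalization, -0.011 with sample weights and 0.011 without TNFdARE mice 1 and 4. As deposited, Snap23 lay 1.40 below it and Stx7 0.02 below it, while Stx11 lay 0.18 above it. A log2 fold change lower than that of Snap23 was found for 50 tested genes, or 3.26%. The median over the 3 tested members was -0.32, and all 3 were below 0, as were 966 of the 1534 genes. That median ranged from -0.67 to -0.05 with single mice left out, and it was above 0 with sample weights (0.13), without TNFdARE mice 1 and 4 (0.31) and without control mouse 1 as well (0.078). No member had groups that did not overlap, which was the case for 3.32% of the genes tested.

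**Figure D2:**
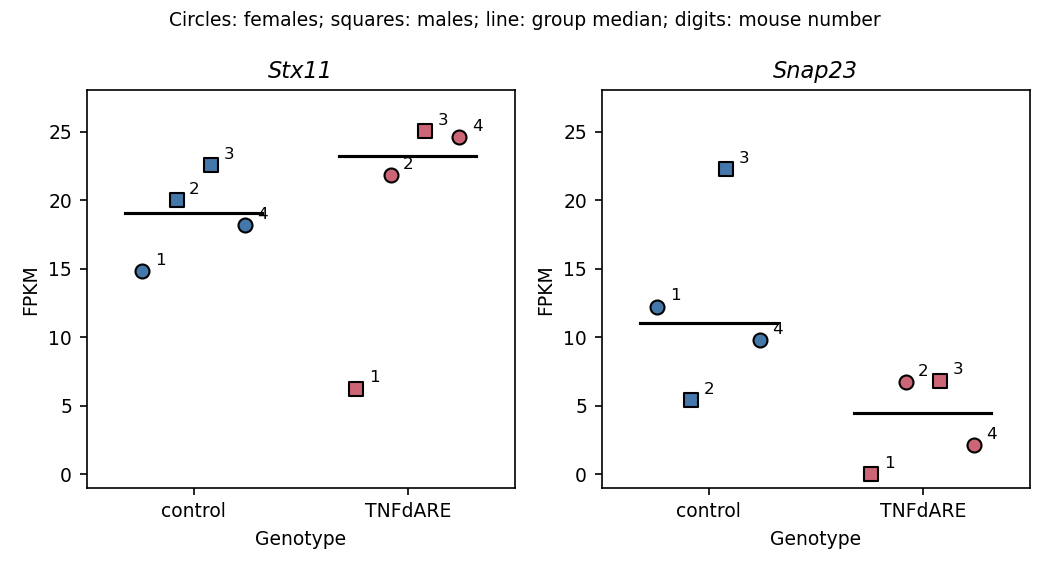
FPKM of Stx11 (left) and Snap23 (right) in each mouse by genotype, with circles for females, squares for males, digits for the mouse number and a line at the group median. TNFdARE mouse 1 has the lowest value of both genes, at 6.23 and 0 FPKM.

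The size of the Snap23 difference rested in large part on the library of TNFdARE mouse 1. The log2 fold change came to -1.07 without TNFdARE mouse 1, -1.62 without TNFdARE mouse 4, -0.63 without both, and -0.70 with limma's sample weights, and in each of these the unadjusted p was over 0.05. The unadjusted limma p was also over 0.05 with control mouse 1, 3 or 4 left out, where the log2 fold change was -1.66, -1.39 and -1.75. TNFdARE mice 1 and 4, which had the lowest Snap23 values, had the fewest genes above 0 of all libraries (818 and 1225) and the highest summed erythroid markers (6917 and 14640 FPKM). The part of library breadth or erythroid RNA in the result was not tested. In bulk platelet RNA, fewer platelets with the transcript and less of it per platelet cannot be told apart. An Ensembl gene model, Gm6615, shares 306 bases with a Snap23 transcript at 95.1% identity, so fragments could have been divided between them. No value for Gm6615 was found among the deposited ones, and such a division was not tested.

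**Figure D3:**
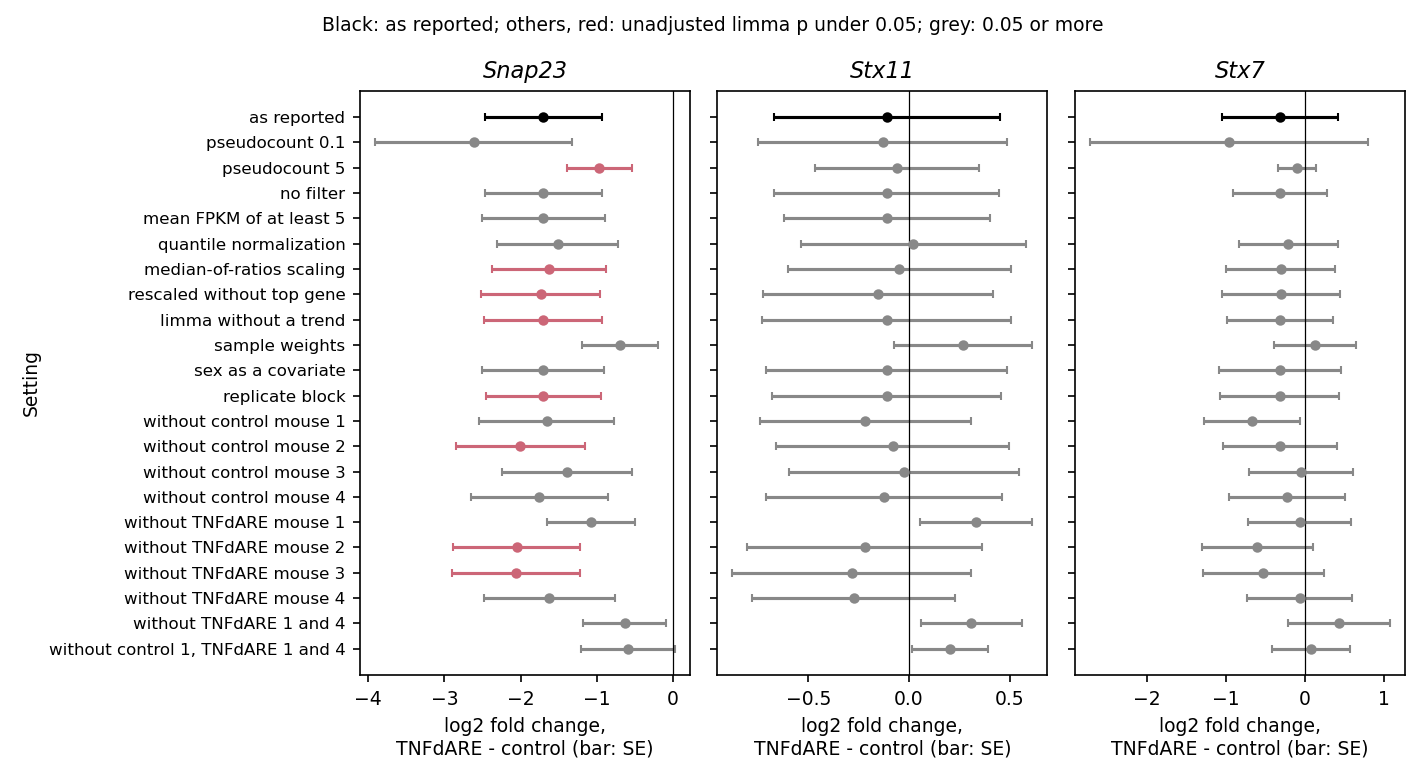
Log2 fold change (TNFdARE minus control, bars for the standard error) of Snap23, Stx11 and Stx7 as reported (black) and under each alternative processing (red where the unadjusted limma p was under 0.05, grey otherwise), with a separate horizontal scale for each gene. Snap23 lies below 0 under every alternative shown, from -2.62 to -0.59, while Stx11 ranges from -0.28 to 0.33 and Stx7 from -0.96 to 0.43.

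Snap29 (ENSMUSG00000022765, chr16:17405986-17430827, forward strand), the partner of syntaxin 17 in autophagosome fusion, was above 0 in TNFdARE mouse 3 alone, at 0.233 FPKM. Its exons share 60 bases with those of Pi4ka on the other strand, and whether strand was used in the estimates is not given in the sources used here.

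The balance of the abundant pair can be read within a library, where scaling cancels in the plain ratio of FPKM. Stx11 exceeded Snap23 in each of the 7 libraries that list Snap23 above 0. Their ratio of FPKM was 1.21, 3.70, 1.01 and 1.86 in control mice 1 to 4. The ratio was 3.25, 3.67 and 11.5 in TNFdARE mice 2, 3 and 4, and none can be formed for TNFdARE mouse 1, where Snap23 was listed at 0. TNFdARE mouse 2 (3.25) and TNFdARE mouse 3 (3.67) fell below control mouse 2 (3.70), and the groups overlapped. This comparison was chosen after the values were seen and was not tested. In control mouse 3 the pair stood at 22.5 and 22.2 FPKM, so that their order there rests on a small difference.

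Among the 3 VAMP members, Vamp3 (ENSMUSG00000028955, chr4:151047300-151057963, reverse strand) had the highest level. It was listed at 0 in control mouse 1 and at 1.04, 1.05 and 2.09 FPKM in control mice 2, 3 and 4. In TNFdARE mice it was listed at 0 in mice 1 and 4 and at 0.462 and 0.643 FPKM in mice 2 and 3. The 2 TNFdARE values above 0 were below the 3 control values above 0. The remaining values, those of control mouse 1 and TNFdARE mice 1 and 4, were listed zeros, and with them the groups overlapped. The difference in mean log2(FPKM + 1) was -0.61 (two-sided exact permutation p = 0.20). It kept its direction in each of the 14 alternatives run for it, from -1.53 to -0.19 over pseudocounts. It was -0.92 without control mouse 1 (exact permutation p = 0.057), -0.37 without control mouse 4 (exact permutation p = 0.40) and -0.29 without TNFdARE mice 1 and 4 (exact permutation p = 0.67). A Vamp3 transcript of 822 bases, which is not its annotated coding transcript (2120 bases), holds a stretch of up to 200 bases that matches 115 other genes at up to 98.3% identity.

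Vamp8 (ENSMUSG00000050732, chr6:72385223-72390703, reverse strand), the R-SNARE shared by granule secretion and autophagosome fusion, was above 0 only in TNFdARE mouse 3, at 0.194 FPKM. Vamp7 (ENSMUSG00000051412) was listed at 0 in all 8 libraries. Its identifier is absent from the GENCODE M21 annotation used here for coordinates and shared sequence, so neither is given for it. The low listing of Vamp8 stands beside Stx11 and Snap23, its partners in the secretory complex, which reached 24.6 and 2.14 FPKM in TNFdARE mouse 4 and 22.5 and 22.2 FPKM in control mouse 3, both libraries that list Vamp8 at 0. The annotated coding transcripts of Vamp8 are 820 and 2076 bases long, against 435 to 4173 for Stx11 and 481 to 2730 for Snap23. Any part of transcript length in the low listing was not tested.

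Stxbp2 (ENSMUSG00000004626, chr8:3630955-3643644, forward strand), the chaperone of syntaxin 11, was listed at 0 in control mouse 1 and at 0.291, 1.49 and 0.898 FPKM in control mice 2, 3 and 4. TNFdARE mice 1 and 4 listed 0, and TNFdARE mice 2 and 3 had 2.35 and 1.27 FPKM. The groups overlapped, and the highest value was that of TNFdARE mouse 2. The difference in mean log2(FPKM + 1) was 0.08 (two-sided exact permutation p = 0.91), and its sign changed on leaving out any 1 of control mice 1 and 2 and TNFdARE mice 2 and 3.

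The number of members above 0 went with the breadth of the library in these 8 mice. In order of the number of genes above 0, the libraries were TNFdARE mouse 1 (818 genes, 1 member), TNFdARE mouse 4 (1225, 2 members), control mouse 1 (1479, 2), control mouse 2 (2196, 5), control mouse 3 (2302, 5), control mouse 4 (2742, 5), TNFdARE mouse 2 (3187, 6) and TNFdARE mouse 3 (4917, 7). It never fell along this order, and both ends of it are TNFdARE mice. Stx7, Vamp3 and Stxbp2 were at 0 in the same libraries, those of control mouse 1, TNFdARE mouse 1 and TNFdARE mouse 4. Of the 385 genes above 0 in exactly 5 libraries, 143 (37.1%) had their zeros in these 3 libraries, the most frequent of the 56 possible sets, ahead of 43 genes for the next. Among the 1136 genes with a mean from 0.5 to under 2 FPKM, the range of these 3 members, 66.8% were at 0 in control mouse 1, 85.1% in TNFdARE mouse 1 and 74.7% in TNFdARE mouse 4, against 18.9% to 49.9% in the other libraries. The shared zeros of Stx7, Vamp3 and Stxbp2 are thus a pattern that they have in common with many genes of their level. With these 3 libraries left out, an alternative added after the data were seen, the log2 fold change was -0.59 for Snap23, 0.20 for Stx11 and 0.078 for Stx7, and the unadjusted p of each was over 0.05. The difference in mean log2(FPKM + 1) was then -0.60 for Vamp3, whose groups no longer overlapped, and 0.59 for Stxbp2 (exact permutation p = 0.10 and 0.30, where 0.10 is the smallest that 3 against 2 mice allow). Vamp3 is listed at 0 in all 3 libraries left out, so its separation and its p followed from that choice.

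**Figure D4:**
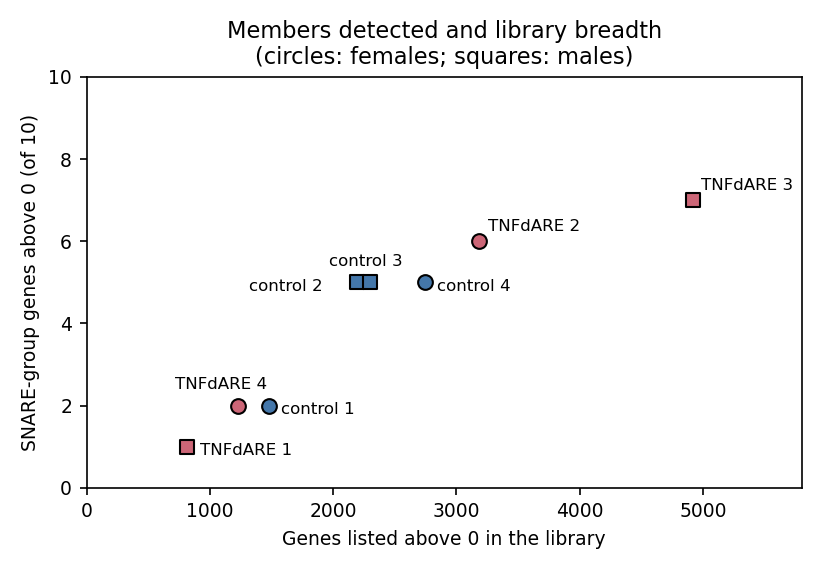
Number of the 10 genes listed above 0 (vertical axis) against the number of all genes listed above 0 (horizontal axis) in each library, with control mice in blue, TNFdARE mice in red, circles for females and squares for males. The count goes from 1 member in the library with 818 genes to 7 members in the library with 4917.

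The other genes of the pathway were taken from lists made by function. Of 31 other SNAREs, 14 were above 0 in at least 1 mouse and 3 had a mean of at least 1 FPKM. Of these 3, 2 were below 0 and 1 above, at a median log2 fold change of -0.18, and 0 had an unadjusted limma p under 0.05. Among all genes tested, 4.5% passed that threshold and 966 of 1534 were below 0, with a median of -0.30. Stx16, a syntaxin of the trans-Golgi network, was at 12.2 and 0.990 FPKM in control mice 3 and 4 and at 0 in the 2 other control mice. TNFdARE mice 2 and 3 had 7.80 and 0.812 FPKM of it, and TNFdARE mice 1 and 4 listed 0. Vamp1, a VAMP best known from neurons, was above 0 in TNFdARE mouse 1 alone, at 15.4 FPKM, and passed the filter only through that library. Gosr2 was at 7.65, 0, 2.63 and 0.509 FPKM in control mice 1 to 4, against 0, 1.21, 0.267 and 0 FPKM in TNFdARE mice 1 to 4. It would not have passed the filter without control mouse 1, so its log2 fold change of -1.02 is not read as a difference between genotypes. Stx16 and Vamp1 were thus above 0 in fewer libraries than Stx11 and Snap23.

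Of 37 regulators of SNAREs, the table held 36, of which 16 had a value above 0 in any mouse and 6 were tested. Of these 5 were below 0 and 1 above, at a median of -0.50 on the log2 scale, and 0 had an unadjusted limma p under 0.05. Over all tested genes, 966 of 1534 were below 0, with a median of -0.30, and 4.5% passed that threshold. Sytl4, the Rab27 effector also called granuphilin, was at 11.9, 10.2, 1.23 and 4.56 FPKM in control mice 1 to 4, against 23.6, 3.77, 1.90 and 0 FPKM in TNFdARE mice 1 to 4. Its groups overlapped widely (log2 fold change -0.60, standard error 0.95, adjusted p = 0.89, limma). Exoc1, a subunit of the exocyst that tethers vesicles, reached 56.1 FPKM in TNFdARE mouse 1 and 0.656 FPKM in TNFdARE mouse 3. It was at 0 in the other mice and passed the filter only through TNFdARE mouse 1. Unc13d, which encodes the priming factor Munc13-4 of platelet granules, differed by -0.45 on the log2 scale (standard error 0.74), and Rab27b, the GTPase of dense granules, by -0.62 (standard error 0.80).

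Of 28 genes for the HOPS tether, Rab7 and autophagosome fusion, the table held 26, of which 15 had a value above 0 in any mouse and 4 were tested. All 4 were below 0, at a median of -0.52 on the log2 scale, and 0 had an unadjusted limma p under 0.05, beside the same 966 of 1534 and 4.5% over all genes. Lamp1, a glycoprotein of the lysosomal membrane, was at 21.3, 10.2, 14.2 and 11.3 FPKM in control mice 1 to 4, against 0, 13.6, 14.8 and 9.08 FPKM in TNFdARE mice 1 to 4. Lamp2, its relative, was at 3.75, 3.10, 3.98 and 3.53 FPKM in control mice, against 0, 5.15, 4.96 and 1.65 FPKM in TNFdARE mice 1 to 4. Both were listed at 0 in TNFdARE mouse 1 and overlapped between the groups (adjusted p = 0.86 for Lamp1 and 0.88 for Lamp2, limma). Of 23 genes of granule formation, 8 were above 0 in at least 1 mouse and none reached the filter. The highest means among these were those of Gfi1b, a transcription factor of megakaryocytes, which reached 2.82 FPKM in control mouse 3, and of Nbeal2, the gene of gray platelet syndrome, which reached 0.896 FPKM in control mouse 4.

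**Figure D5:**
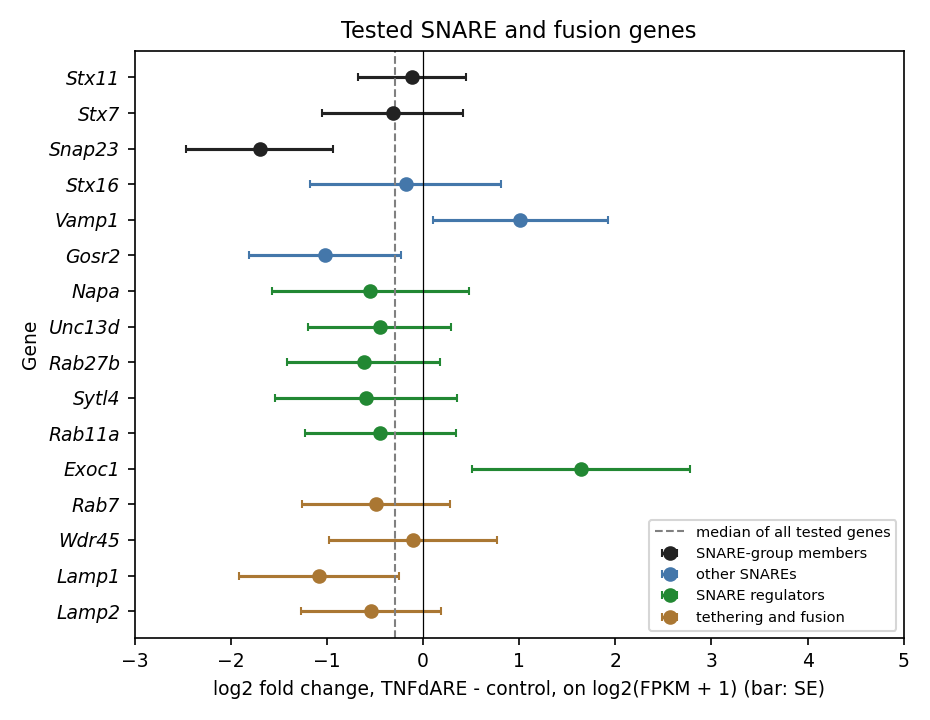
Log2 fold change (TNFdARE minus control, bars for the standard error) of the 3 tested members and the 13 tested genes of the other lists, with a dashed line at the median of all 1534 tested genes (-0.30). Snap23 has the lowest value shown, -1.70. Exoc1 (1.64, the highest) and Vamp1 passed the mean filter only through TNFdARE mouse 1, at 56.1 and 15.4 FPKM, so their fold changes are not read as differences between genotypes. The same holds for Gosr2, which would not have passed without control mouse 1, at 7.65 FPKM.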

How the data were processed

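Platelet RNA was sequenced by the authors as 150 bp reads. The submitters' processing notes name mm10 and Cufflinks, and versions and annotation are not given in the sources used here. Each gene has 1 deposited value per mouse, taken to be FPKM because the columns sum to different totals. Low values gave no step that could be read as 1 fragment, so the depth is unknown and no count model was used. Columns were matched to mice by library name, and 0 value columns were left unmapped. Genes with a mean of at least 1 FPKM entered limma 3.58.1 (R 4.3.3) as log2(FPKM + 1) (trend, Benjamini-Hochberg adjustment over all tested genes). Single genes were compared by two-sided exact permutation tests over 70 assignments. Coordinates and transcript lengths are from GENCODE M21 (GRCm38), and shared sequence was found with BLAST 2.17.0 at 95% identity over at least 150 bases. The members and gene lists were chosen with earlier results of these data known. All members are named. From the other lists, genes are named if past an unadjusted p of 0.05, without overlap between groups, or among the 2 with the highest mean. Unc13d, Rab27b and Gosr2 were added with their values known. Results were recomputed with a pseudocount of 0.1 or 5, with no filter or a higher one, under 3 scalings, with limma lacking the trend or weighting samples, with a term for sex or for replicate number, and with mice left out.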

Additional observations from a re-analysis of the deposited data

Results flagged for a closer look

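In 13 groups of 4 mice with any value above 0, the highest or lowest mouse was compared with the others, and 3 groups had a mouse far from the rest. In all 3 the mouse was the only one of its group above 0, so that its gap to the nearest mouse was by construction 1 of the group's range, and the number of such groups cannot be read against chance. They were TNFdARE mouse 2 in Stx12 (0.0809 FPKM) and TNFdARE mouse 3 in Snap29 (0.233 FPKM) and in Vamp8 (0.194 FPKM). These are the 2 libraries with the most genes above 0, 3187 and 4917.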

How the results depend on the processing

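The count of members past an unadjusted p of 0.05 was 1 (Snap23). It was 0 with a pseudocount of 0.1, without a filter, with a minimum mean of 5 FPKM, with quantile normalization, with sample weights, with sex as a covariate, without TNFdARE mice 1 and 4, and without those mice and control mouse 1. It ranged from 0 to 1 when single mice were left out, with 0 without any 1 of control mice 1, 3 and 4 or TNFdARE mice 1 and 4. With control mice 1, 3 and 4 left out in turn, the log2 fold change of Snap23 was -1.66, -1.39 and -1.75. The log2 fold change of Snap23 was still -2.62 to -1.51 with that pseudocount, those filters, quantile normalization and sex, and was -0.70 with sample weights and -0.63 and -0.59 without those 2 and 3 mice. The unadjusted p of Snap23 ran from 0.034 to 0.39 and its adjusted p from 0.61 to 1 over 21 alternatives, and the causes were not tested. Stx11 changed sign with quantile normalization (0.022), sample weights (0.27), without TNFdARE mice 1 and 4 (0.31) and without control mouse 1 as well (0.20), and ranged from -0.28 to 0.33 with 1 mouse left out. Stx7 changed sign with sample weights (0.13), without TNFdARE mice 1 and 4 (0.43) and without control mouse 1 as well (0.078). Stxbp2 was -0.22 with a pseudocount of 0.1, -0.26 to 0.32 with 1 mouse left out, 0.81 without TNFdARE mice 1 and 4 and 0.59 without control mouse 1 as well. The number of genes past an unadjusted p of 0.05 was 36 with a mean of at least 5 FPKM and 111 with sample weights, against 69. With the replicate number as a block, 64 genes and 1 member passed, and the log2 fold change of Snap23 was -1.70 (standard error 0.75). The numbers were not taken as pairs, since the deviations of same-numbered mice correlated between -0.07 and 0.06 across genes. Library names share a code between control mouse 1 and TNFdARE mouse 1 and between control mouse 4 and TNFdARE mouse 3, and what the codes mean is not given in the sources used here. The fits without a mouse keep the filter of all 8 mice.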
